A study of Mus musculus with 8 samples.

Results

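The 32 genes described here encode the enzymes, carriers and targets by which the liver binds, activates, imports and burns fatty acids and turns them over to ketone bodies. They were chosen by name for these roles, with the transcription factor gene Ppara, and all 32 were found among the 24062 gene entries of each count table. RNA was sequenced from livers of lean wild-type C57BL/6 mice, taken after 6 h without food, 1 week after an adenovirus had been given at 0.1 OD. Of the 4 groups, shDnajb9 mice got a short hairpin virus against Dnajb9, which encodes a co-chaperone of the endoplasmic reticulum, and were 3 months old. Their lacZ1 controls, also 3 months old, got a lacZ virus. shRictor mice got a hairpin virus against Rictor, which encodes a defining subunit of the kinase complex mTORC2, and were 4 months old. Their lacZ2 controls, also 4 months old, got a lacZ virus. By its title, the study asks how a chaperone and mTORC2 tie energy metabolism to the sensing of nutrients. Each group had 2 libraries. The labels do not say that these came from separate animals, nor what the lacZ virus carries, so p-values measure only the spread between these samples, which may be technical. The tissue is bulk liver, in which fewer cells of a type and less RNA per cell cannot be told apart.

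In fasted liver, fatty acids from adipose tissue are bound by carrier proteins, coupled to coenzyme A, and either stored in lipid droplets or handed to carnitine for entry into mitochondria. There each turn of beta-oxidation shortens the chain, electrons leave through the electron transfer flavoprotein, and the acetyl-CoA formed can become ketone bodies; very long chains are first shortened in peroxisomes. Many of these genes are induced by the nuclear receptor PPAR alpha, which binds as a partner of a retinoid X receptor to repeats of the hexamer AGGTCA spaced by a single base.

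RefSeq promoter windows on GRCm38.p6, from 250 bases before to 50 bases after the start, were given for 27 of the 32 genes. That repeat (AGGTCA, any single base, AGGTCA), searched on both strands, was in 0 of these 27 genes, and in 13 of 32851 windows of all genes (0.0396%). At so low a share a match in 27 genes was hardly to be found, so its absence is uninformative. The single hexamer AGGTCA, which is also part of that repeat, was in 7 of the 27 genes (25.9%). Counted by window, it was in 8 of their 30 windows, and in 16.3% of all windows. TGTTTAC, a core recognised by FoxO factors, was in 0 of the 27 genes and in 3.65% of all windows. The 250 bases before the start are shown for Acot2, Plin2 and Pdk4, which fell under both hairpins, and for Fabp1, the member with the highest level per length. They run 5′ to 3′ on the strand of the gene, with AGGTCA or its complement TGACCT in capitals. The windows are chr12:83987611-83987860 on the plus strand for Acot2, chr4:86670060-86670309 on the minus strand for Plin2, chr6:5496279-5496528 on the minus strand for Pdk4 and chr6:71199629-71199878 on the plus strand for Fabp1.
Acot2: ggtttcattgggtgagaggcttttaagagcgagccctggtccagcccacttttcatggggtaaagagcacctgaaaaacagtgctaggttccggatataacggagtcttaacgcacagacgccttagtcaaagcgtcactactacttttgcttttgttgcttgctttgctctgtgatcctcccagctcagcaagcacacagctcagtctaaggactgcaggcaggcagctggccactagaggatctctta
Plin2: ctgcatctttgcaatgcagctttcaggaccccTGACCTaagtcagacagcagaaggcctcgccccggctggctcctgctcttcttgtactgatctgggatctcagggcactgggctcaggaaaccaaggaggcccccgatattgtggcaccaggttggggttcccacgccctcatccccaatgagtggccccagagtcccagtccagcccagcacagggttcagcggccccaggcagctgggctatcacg
Pdk4: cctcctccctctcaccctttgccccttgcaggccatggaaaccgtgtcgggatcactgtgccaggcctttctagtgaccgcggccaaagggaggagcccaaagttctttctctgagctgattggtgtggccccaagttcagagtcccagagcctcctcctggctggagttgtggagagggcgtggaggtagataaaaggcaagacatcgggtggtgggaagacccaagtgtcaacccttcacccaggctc
Fabp1: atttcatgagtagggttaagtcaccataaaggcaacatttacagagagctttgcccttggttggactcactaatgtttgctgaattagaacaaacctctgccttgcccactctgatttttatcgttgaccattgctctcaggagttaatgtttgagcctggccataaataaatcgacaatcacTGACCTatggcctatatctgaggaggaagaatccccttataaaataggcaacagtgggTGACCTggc
Plin2 held 1 hexamer and Fabp1 held 2, whereas Acot2 and Pdk4 held none in these windows. A match describes the letters only and is not evidence of binding, and the lack of a match is not evidence of no binding.

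Between 6426164 and 11383532 reads per library were assigned to genes, and the 32 members took 0.762% to 1.19% of them. Reads without a unique position made up 41.3% and 42% of the shDnajb9 libraries and 22.9% and 24.9% of the lacZ1 libraries. They made up 32.7% and 26.7% of the shRictor libraries and 24.6% and 24.2% of the lacZ2 libraries, and the part of this share in the results was not tested. Dnajb9 itself stood at 22.0 and 20.3 counts scaled to library size (CPM, as defined by edgeR) in shDnajb9 livers, against 30.6 and 38.0 CPM in lacZ1 livers, a log2 difference of -0.70 (SE 0.247, adjusted p = 0.056). Rictor stood at 40.1 and 42.0 CPM in shRictor livers, against 52.3 and 65.2 CPM in lacZ2 livers, a log2 difference of -0.52 (SE 0.281, adjusted p = 0.231). Both targets were lower in both hairpin libraries than in both controls, and neither passed the threshold.

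Per length (RPKM, which is CPM divided by kilobases of exon), Fabp1 was the highest member in each of the 4 groups. It averaged 3491.7 RPKM in shDnajb9, 2985.6 RPKM in shRictor, 1477.4 RPKM in lacZ2 and 1376.8 RPKM in lacZ1. Acaa2, the mitochondrial thiolase, was next in each group, followed by Acaa1b, a peroxisomal thiolase. The Acaa2 and Acaa1b libraries overlapped in lacZ2 and lacZ1 but not in shDnajb9 or shRictor. Plin2 was the fourth in lacZ2 and lacZ1, at 292.7 and 286.3 RPKM, while Etfb held that place in both hairpin groups. Acot3 was the lowest member in shDnajb9, lacZ2 and lacZ1, at 0.937, 5.53 and 2.27 RPKM, and Pdk4 in shRictor, at 1.28 RPKM. Of Acaa1b and Etfb, 39.6% and 44.8% of the exon sequence recurs in other genes, so their levels are uncertain. For Etfb the main such genes, Gm45233 and Mir7051, overlap it at its own position, and Gm45233 is not among the count entries.

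**Figure D1:**
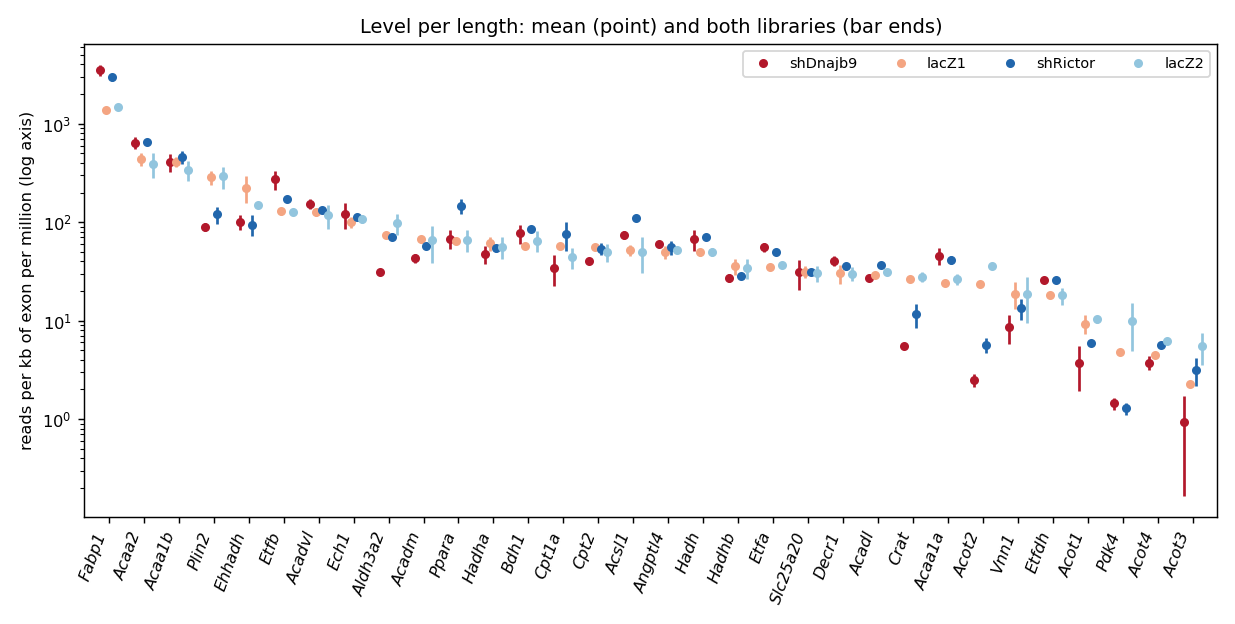
Mean level per length (RPKM, log axis) of the 32 members in each of the 4 groups, with the range of the 2 libraries. Fabp1 is the highest member in every group, and Acot2, Plin2, Crat and Pdk4 sit lower in the hairpin groups than in their controls.

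Under the Dnajb9 hairpin, 4 of the 32 members rose (Fabp1, Etfa, Etfb and Acaa1a), 7 fell (Plin2, Aldh3a2, Crat, Ehhadh, Acot1, Acot2 and Pdk4) and 21 were not called. A member was called where the adjusted p of edgeR's quasi-likelihood test, over 13767 genes, was under 0.05. The called share was 34.4% of members, beside 24.2% of all genes tested, of which 11.6% rose and 12.6% fell. The members' median log2 fold change was -0.06, beside -0.05 over all genes. Under the Rictor hairpin 1 member rose (Ppara), 4 fell (Plin2, Crat, Acot2 and Pdk4) and 27 were not called. The called share was 15.6% of members, beside 18.2% of all genes, of which 7.31% rose and 10.9% fell. The members' median was 0.12, beside -0.02 over all genes. The 4 genes that fell under the Rictor hairpin were all among the 7 that fell under the Dnajb9 hairpin, a share of 57.1% of those 7, beside 54.6% of all genes that fell under the Dnajb9 hairpin. Counted over every gene, 12.5% of members and 6.85% of all genes tested fell under both. No member rose under both, beside 4.16% of all genes tested.

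**Figure D2:**
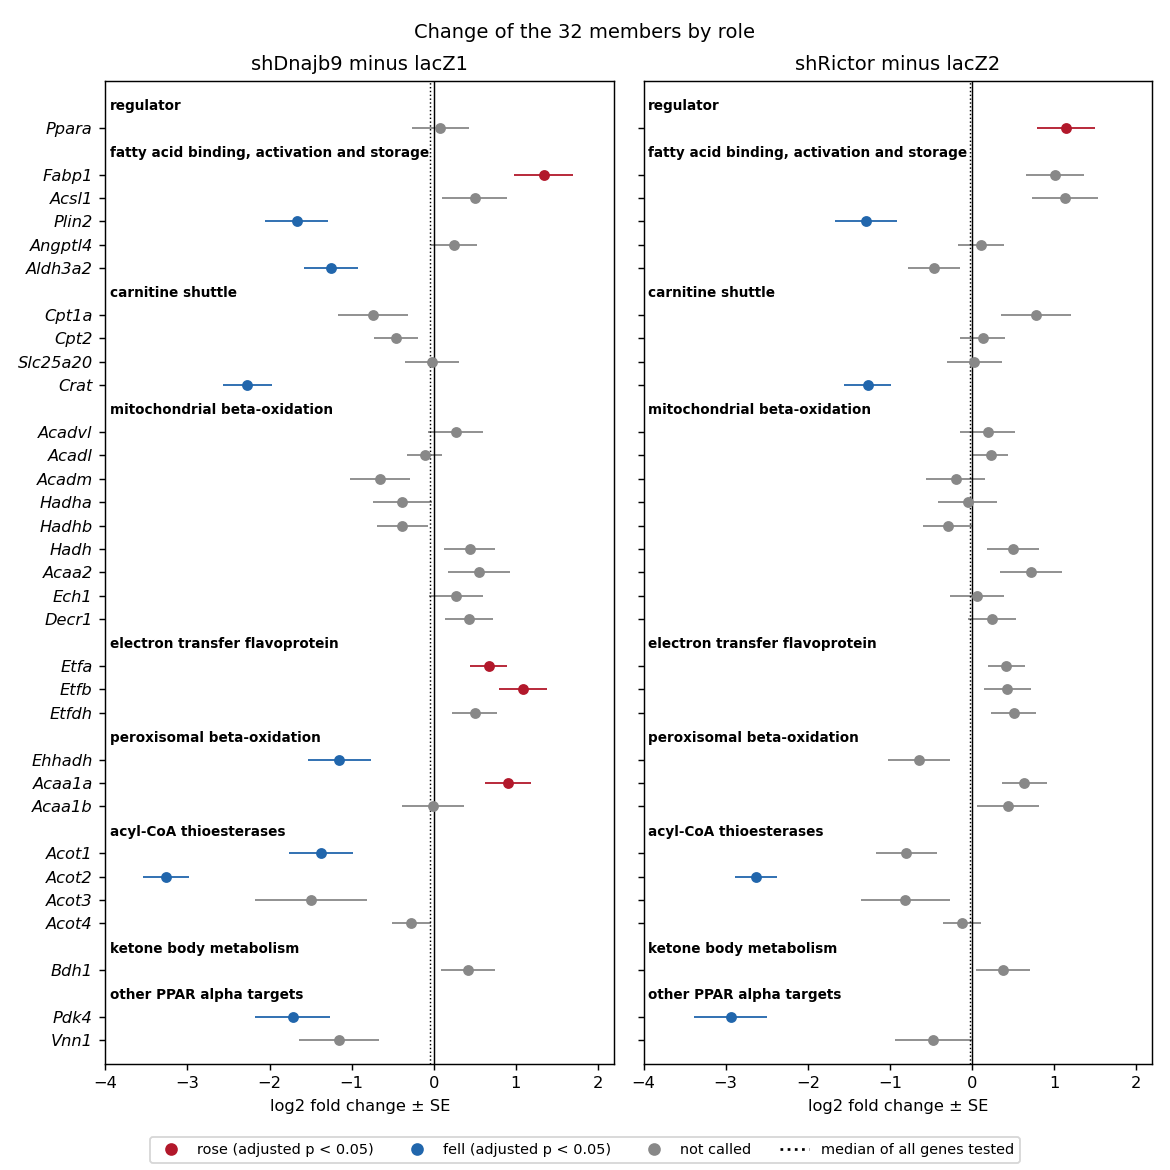
Log2 fold change with its standard error for the 32 members, for shDnajb9 over lacZ1 and shRictor over lacZ2, ordered by role. Acot2, at -3.26 and -2.63, lies farthest below 0 under the Dnajb9 hairpin, and Pdk4, at -2.94, under the Rictor hairpin; the 9 mitochondrial beta-oxidation genes lie between -0.65 and 0.72.

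Ppara, which encodes the nuclear receptor PPAR alpha, rose under the Rictor hairpin and was not called under the Dnajb9 hairpin. It stood at 468.1 and 662.2 CPM in shRictor livers, against 191.6 and 319.0 CPM in lacZ2 livers. It was 2.21-fold higher (log2 1.15, SE 0.352, adjusted p = 0.0389), and the groups did not overlap. In shDnajb9 livers it stood at 205.4 and 316.5 CPM, against 258.7 and 236.2 CPM in lacZ1 livers, and these groups overlapped (log2 0.08, SE 0.349, adjusted p = 0.888). The effect of the Rictor hairpin minus that of the Dnajb9 hairpin was 1.07 (SE 0.494, adjusted p = 0.46). The call held in 9 of 18 alternative fits, over which the adjusted p ran from 0.0038 to 0.236. It was lost with lacZ2 replicate 1 left out (log2 0.83), with shRictor replicate 1 left out (log2 1.38), with shRictor replicate 2 left out (log2 0.88), with either lacZ1 library left out (log2 1.15), and with scaling by total count alone (log2 0.76).

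Among the genes of binding, activation and storage, Fabp1 rose under the Dnajb9 hairpin, Plin2 fell under both hairpins, and Aldh3a2 fell under the Dnajb9 hairpin. Fabp1, the main fatty acid carrier of the hepatocyte cytosol, stood at 2159.3 and 1702.5 CPM in shDnajb9 livers, against 755.7 and 767.0 CPM in lacZ1 livers. It was 2.54-fold higher (log2 1.34, SE 0.356, adjusted p = 0.0175), with no overlap. In shRictor livers Fabp1 stood at 1783.2 and 1518.9 CPM, against 767.8 and 866.1 CPM in lacZ2 livers. Those groups did not overlap either, at a log2 difference of 1.01 (SE 0.353, adjusted p = 0.0636), and DESeq2 called it (log2 1.04, adjusted p = 0.000675, the lowest of 18 alternatives that reached 0.269). With lacZ1 replicate 1, lacZ1 replicate 2 or shDnajb9 replicate 1 left out, the adjusted p under the Dnajb9 hairpin was 0.165, 0.102 or 0.105, and the log2 fold change was 1.30, 1.35 or 1.17.

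Plin2, which coats lipid droplets, stood at 284.9 and 345.9 CPM in shDnajb9 livers, against 839.9 and 1171.3 CPM in lacZ1 livers. It was 3.19-fold lower (log2 -1.67, SE 0.385, adjusted p = 0.00873). Its level in shRictor livers was 340.0 and 503.0 CPM, against 771.8 and 1284.5 CPM in lacZ2 livers, 2.44-fold lower (log2 -1.29, SE 0.38, adjusted p = 0.0328). All 4 hairpin libraries lay below all 4 control libraries. Under the Dnajb9 hairpin the adjusted p reached 0.0612 with lacZ1 replicate 2 left out (log2 -1.41) and 0.0754 with shDnajb9 replicate 1 left out (log2 -1.54). Under the Rictor hairpin it reached 0.163 with lacZ2 replicate 2 left out (log2 -0.85) and 0.247 with shRictor replicate 1 left out (log2 -1.03). It was 0.078 with shRictor replicate 2 left out (log2 -1.59) and 0.0509 with lacZ1 replicate 1 left out (log2 -1.28).

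Aldh3a2, a fatty aldehyde dehydrogenase, stood at 176.7 and 176.1 CPM in shDnajb9 livers, against 395.2 and 442.0 CPM in lacZ1 livers, and was 2.37-fold lower (log2 -1.25, SE 0.325, adjusted p = 0.0161). The shRictor livers had 367.9 and 432.9 CPM, against 418.7 and 684.2 CPM in lacZ2 livers (log2 -0.46, SE 0.32, adjusted p = 0.358). The Dnajb9 groups did not overlap and the Rictor groups did. With lacZ1 replicate 1, lacZ1 replicate 2 or shDnajb9 replicate 1 left out, the adjusted p under the Dnajb9 hairpin was 0.0734, 0.0804 or 0.0858, at log2 fold changes of -1.35, -1.17 or -1.25. Acsl1, which couples long-chain fatty acids to coenzyme A, stood at 1194.7 and 1108.6 CPM in shRictor livers, against 321.3 and 733.7 CPM in lacZ2 livers. These groups did not overlap, at a log2 difference of 1.13 (SE 0.404, adjusted p = 0.0714), and DESeq2 (log2 1.15, adjusted p = 0.00928) and limma-voom (log2 1.28, adjusted p = 0.0445) called it, within a range of 0.00801 to 0.313 over the 18 alternatives. In shDnajb9 livers Acsl1 stood at 844.6 and 707.8 CPM, against 477.1 and 619.6 CPM in lacZ1 livers (log2 0.50, SE 0.4, adjusted p = 0.368). Angptl4, a secreted inhibitor of lipoprotein lipase, overlapped between hairpin and control libraries in both comparisons (log2 0.25 and 0.11).

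**Figure D3:**
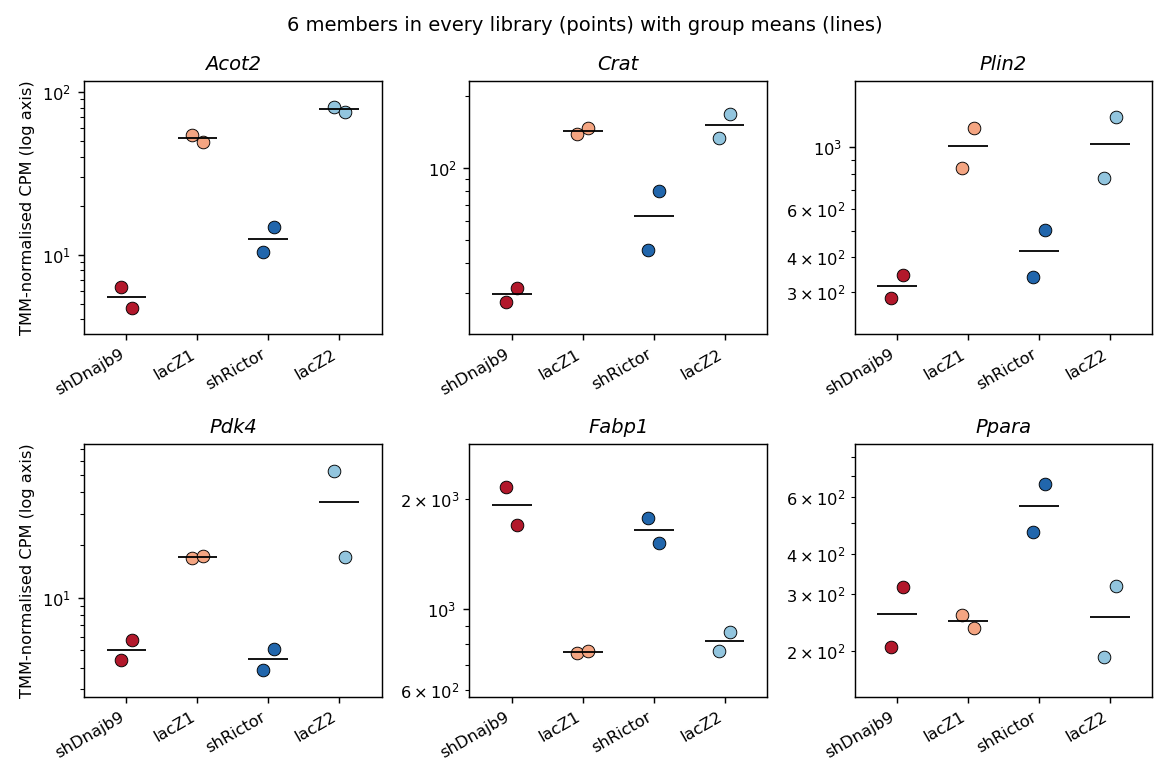
Level in each of the 8 libraries (CPM, log axis) of 6 called members, hairpin libraries left of their controls, with group means as lines. The 4 hairpin libraries of Acot2, Crat, Plin2 and Pdk4 lie below the 4 control libraries, whereas for Ppara the shRictor libraries alone, at 468.1 and 662.2 CPM, lie above every other.

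Of the 4 carnitine shuttle genes, Crat fell under both hairpins and the other 3 were not called. Crat, carnitine acetyltransferase, which trades acetyl groups between coenzyme A and carnitine, stood at 27.5 and 31.5 CPM in shDnajb9 livers, against 138.6 and 147.1 CPM in lacZ1 livers. It was 4.83-fold lower (log2 -2.27, SE 0.3, adjusted p = 0.00031). Livers given the Rictor hairpin had 45.1 and 80.1 CPM, against 132.7 and 168.7 CPM in lacZ2 livers, 2.4-fold lower (log2 -1.27, SE 0.287, adjusted p = 0.00892). No hairpin library reached a control library. The Dnajb9 call held in all 18 alternatives, from -2.69 to -2.18. The Rictor call held in 15 of 18 and was lost with lacZ2 replicate 2 left out (log2 -1.06, adjusted p = 0.0594) and with shRictor replicate 1 left out (log2 -0.91, adjusted p = 0.115).

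Cpt1a, which loads long-chain fatty acids onto carnitine at the rate-limiting step, stood at 171.1 and 351.4 CPM in shDnajb9 livers, against 461.9 and 414.7 CPM in lacZ1 livers. The log2 difference was -0.74 (SE 0.424, adjusted p = 0.209). Its level in shRictor livers was 388.6 and 769.4 CPM, against 257.7 and 417.8 CPM in lacZ2 livers, a log2 difference of 0.78 (SE 0.424, adjusted p = 0.233). The Dnajb9 groups did not overlap and the Rictor groups did. Rictor effect minus Dnajb9 effect was 1.52 (SE 0.6), the largest difference between the hairpins among the members, and its adjusted p was 0.434. Cpt2, which hands the acyl group back to coenzyme A inside the mitochondrion, differed by -0.46 under the Dnajb9 hairpin (adjusted p = 0.226) and by 0.13 under the Rictor hairpin (adjusted p = 0.798). Slc25a20, the carnitine carrier of the inner membrane, differed by -0.02 and 0.03.

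The 9 enzymes of mitochondrial beta-oxidation were not called in either comparison. By edgeR, 0 of 9 had an unadjusted p under 0.05 under either hairpin, and DESeq2 and limma-voom called 0 of 9 too. Their log2 fold changes ran from -0.65 (Acadm, the medium-chain acyl-CoA dehydrogenase) to 0.55 (Acaa2) under the Dnajb9 hairpin, with standard errors of 0.214 to 0.377. For the Rictor hairpin they ran from -0.29 (Hadhb) to 0.72 (Acaa2), with standard errors of 0.212 to 0.377. Their medians were 0.27 and 0.19. Acaa2 stood at 1109.1 and 831.9 CPM in shDnajb9 livers, against 563.4 and 760.5 CPM in lacZ1 livers, and at 999.6 and 958.7 CPM in shRictor livers, against 425.3 and 766.9 CPM in lacZ2 livers. It was higher without overlap in both comparisons, with adjusted p of 0.292 and 0.215.

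Hadha and Hadhb encode the subunits of the trifunctional protein, which carries out the later steps on long chains, and their starts lie 86 bases apart on opposite strands of chromosome 5. Hadha differed by -0.38 under the Dnajb9 hairpin and by -0.05 under the Rictor hairpin, and Hadhb by -0.38 and -0.29. Acadvl, the very-long-chain acyl-CoA dehydrogenase, differed by 0.27 and 0.19. It is uncertain, since 26.9% of its exon sequence is shared and Dvl2 overlaps it on the opposite strand. Acadl, the long-chain dehydrogenase, differed by -0.11 and 0.23. Hadh, the short-chain 3-hydroxyacyl-CoA dehydrogenase, differed by 0.44 and 0.50. Decr1 and Ech1, which process unsaturated chains, differed by 0.43 and 0.27 under the Dnajb9 hairpin and by 0.24 and 0.06 under the Rictor hairpin.

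The 3 genes of the electron transfer flavoprotein system were higher in both hairpin libraries than in both controls in each comparison, and 2 of them rose under the Dnajb9 hairpin. Etfb, the beta subunit, stood at 388.9 and 247.4 CPM in shDnajb9 livers, against 138.4 and 160.7 CPM in lacZ1 livers, and was 2.13-fold higher (log2 1.09, SE 0.29, adjusted p = 0.0178). Etfa, the alpha subunit, stood at 111.5 and 92 CPM in shDnajb9 livers, against 62.1 and 65.7 CPM in lacZ1 livers, and was 1.59-fold higher (log2 0.67, SE 0.223, adjusted p = 0.0448). Etfdh, the oxidoreductase that passes the electrons on to ubiquinone, stood at 205.2 and 182.6 CPM, against 128.5 and 145.0 CPM in lacZ1 livers (log2 0.50, adjusted p = 0.188). Under the Rictor hairpin the log2 differences were 0.43 for Etfb, 0.42 for Etfa and 0.51 for Etfdh, with adjusted p of 0.336, 0.211 and 0.22. By edgeR 0 of these 3 genes had an unadjusted p under 0.05 there, and DESeq2 and limma-voom called 0 of 3. Over all genes, 32.4% were higher without overlap under the Dnajb9 hairpin, 28.8% under the Rictor hairpin and 19% under both. Under total-count scaling, Etfb (log2 0.63, adjusted p = 0.0599) and Etfa (log2 0.23, adjusted p = 0.406) were not called. With lacZ1 replicate 1, lacZ1 replicate 2 or shDnajb9 replicate 1 left out, the adjusted p of Etfb was 0.183, 0.0665 or 0.139, at log2 0.95, 1.19 or 0.73. With the same libraries left out, that of Etfa was 0.283, 0.145 or 0.198, at log2 0.60, 0.70 or 0.53. With lacZ2 replicate 1, lacZ2 replicate 2, shRictor replicate 1 or shRictor replicate 2 left out, that of Etfa was 0.058, 0.0588, 0.0646 or 0.0642, and the gene was called in 5 of 18 alternatives.

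Of the 3 peroxisomal genes, Ehhadh fell and Acaa1a rose under the Dnajb9 hairpin, and none was called under the Rictor hairpin, where edgeR gave 1 of 3 an unadjusted p under 0.05 and DESeq2 and limma-voom called 0 of 3. Ehhadh, the bifunctional enzyme of peroxisomal beta-oxidation, stood at 349.9 and 249.8 CPM in shDnajb9 livers, against 462.1 and 871.3 CPM in lacZ1 livers. It was 2.22-fold lower (log2 -1.15, SE 0.381, adjusted p = 0.0434). The shRictor livers had 214.3 and 349.2 CPM, against 433.8 and 446.5 CPM in lacZ2 livers (log2 -0.64, adjusted p = 0.272). Neither comparison overlapped. The call was lost with the replicate number as a block (log2 -1.08, adjusted p = 0.0531) and with lacZ1 replicate 2 (log2 -0.63, adjusted p = 0.332), shDnajb9 replicate 1 (log2 -1.41, adjusted p = 0.087) or shDnajb9 replicate 2 (log2 -0.93, adjusted p = 0.149) left out. Acaa1a, a peroxisomal thiolase, shares 290 exon bases with Myd88 on the opposite strand, and the strand setting of the counts is not given. It stood at 241.1 and 162.8 CPM in shDnajb9 livers, against 109.4 and 105.4 CPM in lacZ1 livers, and was 1.88-fold higher (log2 0.91, SE 0.28, adjusted p = 0.0326). Without shDnajb9 replicate 1 its log2 fold change was 0.60 (adjusted p = 0.221), without lacZ1 replicate 1 it was 0.91 (adjusted p = 0.191) and without lacZ1 replicate 2 it was 0.87 (adjusted p = 0.143); under total-count scaling it was 0.45 (adjusted p = 0.153). Acaa1b, which shares much of its sequence with Acaa1a, differed by -0.01 under the Dnajb9 hairpin and by 0.44 under the Rictor hairpin. The 2 genes summed to 1215.0 and 793.2 CPM in shDnajb9 livers, against 830.0 and 998.6 CPM in lacZ1 livers, and these groups overlapped.

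The acyl-CoA thioesterases split acyl-CoA into free fatty acid and coenzyme A, and 4 members, Acot1 to Acot4, lie together within 72542 bases of chromosome 12. Acot2, the mitochondrial enzyme, at positions 83987861 to 83993873 (GRCm38), fell under both hairpins. It stood at 6.29 and 4.68 CPM in shDnajb9 livers, against 54.3 and 49.2 CPM in lacZ1 livers, and was 9.61-fold lower (log2 -3.26, SE 0.282, adjusted p = 3.78e-05). Livers given the Rictor hairpin had 10.4 and 14.7 CPM, against 80.7 and 75.3 CPM in lacZ2 livers, 6.21-fold lower (log2 -2.63, SE 0.257, adjusted p = 0.000104). The gap between hairpin and control libraries was many times the gap between libraries of a group. The call held in all 18 alternatives in both comparisons, from -3.69 to -3.04 and from -3.05 to -2.40. Of its exon sequence 27.7% recurs in other genes, Acot1 among them, so reads can be split or dropped between them.

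Acot1, the cytosolic enzyme, stood at 21.6 and 7.54 CPM in shDnajb9 livers, against 28.4 and 44.4 CPM in lacZ1 livers, and was 2.58-fold lower (log2 -1.37, SE 0.391, adjusted p = 0.0254). Its level in shRictor livers was 22.6 and 23.9 CPM, against 37.0 and 43.8 CPM in lacZ2 livers (log2 -0.80, SE 0.371, adjusted p = 0.161), and 5 of 18 alternatives called it, over which the adjusted p ran from 0.0218 to 0.5. With shDnajb9 replicate 1 or 2 left out it was 0.0347 or 0.0353. Without shDnajb9 replicate 2 its Dnajb9 log2 fold change was -0.75 (adjusted p = 0.0957), and without lacZ1 replicate 2 it was -1.02 (adjusted p = 0.131). Summed, Acot1 and Acot2 reached 27.9 and 12.2 CPM in shDnajb9 livers, against 82.7 and 93.6 CPM in lacZ1 livers. The sum was 33.0 and 38.5 CPM in shRictor livers, against 117.7 and 119.2 CPM in lacZ2 livers. The summed groups did not overlap in either comparison. Acot2 made up 22.6% and 38.3% of the sum in shDnajb9 livers, against 65.7% and 52.6% in lacZ1 livers, and 31.4% and 38.1% in shRictor livers, against 68.6% and 63.2% in lacZ2 livers. Acot4, a peroxisomal enzyme, differed by -0.27 and -0.12. Acot3, also peroxisomal, is uncertain at 21.3% shared sequence. The genes that mainly share it, Gm49366 and 4732463B04Rik, overlap Acot3 and are not among the count entries. Acot3 stood at 5.87 and 0.571 CPM in shDnajb9 livers, against 7.62 and 7.99 CPM in lacZ1 livers (2.83-fold lower, adjusted p = 0.122). That value rests on single libraries: with shDnajb9 replicate 1 left out the log2 fold change was -3.74 and was called (adjusted p = 0.0126), and with shDnajb9 replicate 2 left out it was -0.41 (adjusted p = 0.609). It stood at 7.53 and 14.2 CPM in shRictor livers, against 12.2 and 25.8 CPM in lacZ2 livers (log2 -0.81, adjusted p = 0.34).

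Bdh1, which interconverts acetoacetate and beta-hydroxybutyrate, was the ketone body enzyme among the members. It stood at 365.6 and 232.1 CPM in shDnajb9 livers, against 210.8 and 236.0 CPM in lacZ1 livers, which overlapped (log2 0.42, SE 0.33, adjusted p = 0.361). It stood at 316.9 and 342.1 CPM in shRictor livers, against 191.3 and 314.2 CPM in lacZ2 livers, which did not (log2 0.38, SE 0.329, adjusted p = 0.47).

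Pdk4, a kinase that shuts pyruvate dehydrogenase and so spares glucose when fat is burned, fell under both hairpins. It stood at 4.40 and 5.71 CPM in shDnajb9 livers, against 16.8 and 17.2 CPM in lacZ1 livers, and was 3.3-fold lower (log2 -1.72, SE 0.454, adjusted p = 0.0176). The shRictor livers had 3.88 and 5.09 CPM, against 52.7 and 17.1 CPM in lacZ2 livers, 7.67-fold lower (log2 -2.94, SE 0.445, adjusted p = 0.00088). The lacZ2 library of replicate 1, at 52.7 CPM, stood apart from the other 3 controls, and with it left out the log2 fold change under the Rictor hairpin was -1.92 (adjusted p = 0.00527). With lacZ2 replicate 2 left out it was -3.53, and the call held in all 18 alternatives. Under the Dnajb9 hairpin the call was lost with any library of that comparison left out: the adjusted p was 0.167 or 0.0735 with shDnajb9 replicate 1 or 2 left out (log2 -1.57 or -1.95), and 0.0878 or 0.0599 with lacZ1 replicate 1 or 2 left out (log2 -1.76 or -1.71). Vnn1, a pantetheinase that frees a precursor of coenzyme A, stood at 27.5 and 14.0 CPM in shDnajb9 livers, against 31.3 and 59.5 CPM in lacZ1 livers (log2 -1.15, SE 0.487, adjusted p = 0.101). Its adjusted p ran from 0.00039 to 0.489 over 18 alternatives, 5 of which called it, among them that with lacZ2 replicate 2 left out (adjusted p = 0.0494). It stood at 24.6 and 39.8 CPM in shRictor livers, against 22.7 and 66.5 CPM in lacZ2 livers (log2 -0.47, adjusted p = 0.538).

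In the Dnajb9 comparison 13 members were lower without overlap and 7 higher, beside 35.1% and 32.4% of all genes. In the Rictor comparison 6 were lower and 11 higher, beside 31.6% and 28.8% of all genes. The same 6 genes were lower without overlap under both hairpins (Acot1, Acot2, Crat, Ehhadh, Pdk4 and Plin2), which is 46.2% of the 13 and every one of the 6. Of all genes lower under the Dnajb9 hairpin 59% were lower under both, and of those lower under the Rictor hairpin 65.5%. These 6 are 18.8% of the members, beside 20.7% of all genes tested. The same 7 genes were higher under both (Acaa1a, Acaa2, Acsl1, Etfa, Etfb, Etfdh and Fabp1), which is every one of the 7 and 63.6% of the 11. The matching shares of all genes were 58.7% and 66.1%. These 7 are 21.9% of the members, beside 19% of all genes tested, so both overlaps were near the share over all genes. Set against each other, the effects of the hairpins differed in 0 of 32 members by edgeR, beside 0.00726% of all genes. At an unadjusted p under 0.05 there were 3 members, and DESeq2 and limma-voom called 0. Adjusted p ran from 0.434 for Cpt1a to 0.996 for Etfdh, so neither equal nor unequal effects were shown. Between the controls, lacZ2 against lacZ1, edgeR called 0 members, beside 0% of all genes, with 3 at an unadjusted p under 0.05 and 0 called by DESeq2 or limma-voom. Without overlap, 5 members were higher and 1 lower in lacZ2 than in lacZ1, beside 11.7% and 9.97% of all genes, Acot2 among the higher (log2 0.59). The control groups also differ in the age of the mice.

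**Figure D4:**
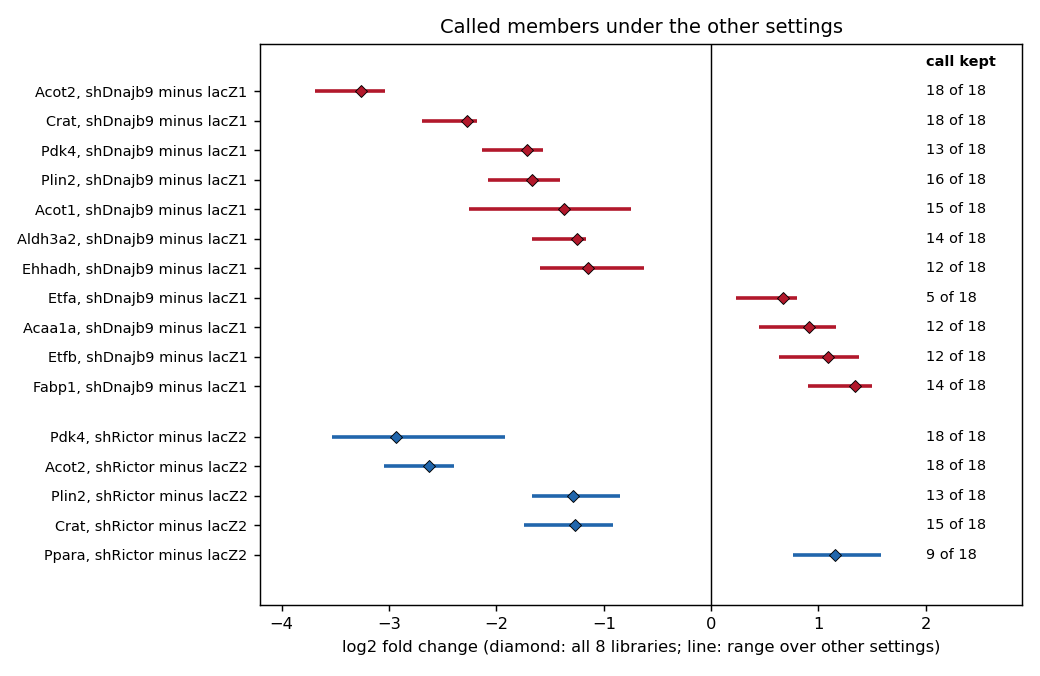
For each member called in a comparison, the log2 fold change with all 8 libraries (diamond), its range over 18 alternative fits (line), and the number of fits that kept the call. Acot2 and Crat keep their calls in all 18 alternatives under the Dnajb9 hairpin, and Acot2 and Pdk4 under the Rictor hairpin, while Etfa keeps its call in 5 of 18.

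Markers of some liver cell types also differed between hairpin and control libraries. The summed level of the hepatocyte markers was 86048.6 and 66117.6 CPM in shDnajb9, against 39960.2 and 54231.7 CPM in lacZ1. The shRictor sums were 64792.7 and 69888.7 CPM, against 21672.8 and 42651.9 CPM in lacZ2. Of the 9 tested, 5 rose under the Dnajb9 hairpin and 4 under the Rictor hairpin, beside 11.6% and 7.31% of all genes. Alb, the albumin gene, went the other way under the Dnajb9 hairpin and was not called. It stood at 22416.6 and 25506.4 CPM in shDnajb9, against 26249.2 and 35452.5 CPM in lacZ1, without overlap. Kupffer cell markers summed to 1394.4 and 1558.9 CPM in shDnajb9, against 1581.8 and 1852.6 CPM in lacZ1, with 2 of 9 falling. The shRictor sums were 915.9 and 1098.8 CPM, against 1577.4 and 1792.7 CPM in lacZ2, with 3 of 9 falling. In each comparison 7 of the 9 Kupffer markers tested had a negative log2 fold change. Clec4f, at 108.4 and 160.5 CPM in shDnajb9, overlapped its 90.7 and 123.2 CPM in lacZ1. Vsig4 was higher in shRictor, at 14 and 14.4 CPM, against 9.42 and 10.8 CPM in lacZ2. Stellate cell markers summed to 335.0 and 448.9 CPM in shDnajb9, against 694.9 and 605.8 CPM in lacZ1, with 5 of 9 falling. The shRictor sums were 439.5 and 420.1 CPM, against 604.2 and 572.9 CPM in lacZ2, with 2 of 9 falling. Over all genes, 12.6% fell under the Dnajb9 hairpin and 10.9% under the Rictor hairpin. In each comparison 7 of the 9 stellate markers had a negative log2 fold change, so the list did not move as a whole. Reln was higher in shRictor, at 129.7 and 143.1 CPM, against 76.4 and 79 CPM in lacZ2. Adipocyte markers summed to 6.71 and 6.17 CPM in shDnajb9, against 10.5 and 14.1 CPM in lacZ1, with Lep, the leptin gene, at 0 in all 8 libraries. Their shRictor sums were 6.59 and 8.9 CPM, against 20.8 and 15.7 CPM in lacZ2. Most of each lacZ2 sum was Fabp4, at 19.3 and 12.4 CPM, against 2.83 and 3.52 CPM in shRictor. Cfd, the other adipocyte marker tested, had a positive log2 fold change there (0.89). It stood at 2.94 and 4.11 CPM in shRictor, against 0.582 and 3.05 CPM in lacZ2, and these groups overlapped. Fabp4, of this list, is also among the other known targets of PPAR alpha counted below. Endothelial markers summed to between 562.0 and 714.4 CPM, and B and plasma cell markers to between 5.58 and 8.47 CPM, over the 8 libraries. Skeletal muscle markers summed to at most 0.471 CPM in any hairpin library, against 1.05 to 1.33 CPM in the controls. These sums rest on 2 to 15 counts per library. Acta1 was at 0 CPM in every hairpin library, against 0.698 to 1.06 CPM in the controls. Mylpf went the other way, at 0.228 to 0.471 CPM in the hairpin libraries, against 0.0886 to 0.233 CPM in the controls. Neutrophil markers summed to 1.05 and 1.03 CPM in shDnajb9, against 25.7 and 6.32 CPM in lacZ1, and the shDnajb9 sums rest on 5 and 9 counts. In shRictor they summed to 1.77 and 4.79 CPM, against 14.4 and 4.06 CPM in lacZ2, and these groups overlapped. T and NK cell markers summed to 21.6 and 37 CPM in shDnajb9, against 47.8 and 40.2 CPM in lacZ1, with 1 of 9 falling. In shRictor they summed to 29.3 and 27.9 CPM, against 39.2 and 60.3 CPM in lacZ2, with 3 of 9 falling. Cholangiocyte markers summed to 36.1 and 65.5 CPM in shDnajb9, against 101.1 and 102.4 CPM in lacZ1, with 2 of 5 tested falling. Their shRictor sums were 52 and 74.6 CPM, against 67.5 and 118.3 CPM in lacZ2, with 0 of 5 falling. The part of these markers in the members' changes was not tested.

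Other genes of the same pathways, 97 tested of 98 listed, were called more often in the rising direction. Under the Dnajb9 hairpin 21 rose and 12 fell, 34.0% in all beside 24.2% of all genes. Their median log2 fold change was 0.14, beside -0.05 over all genes. With the Rictor hairpin 24 rose and 10 fell, 35.1% beside 18.2% of all genes, with a median of 0.42, beside -0.02 over all genes. For the counts of each list below, the shares of all genes were 11.6% rising and 12.6% falling under the Dnajb9 hairpin. Under the Rictor hairpin these shares were 7.31% and 10.9%. Both hairpins shared 14 rising genes, which is 66.7% of those under the Dnajb9 hairpin and 58.3% of those under the Rictor hairpin, beside 35.9% and 57% over all genes. They shared 9 falling genes, 75% and 90% of each, beside 54.6% and 62.8% over all genes, and none moved in opposite directions.

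Fatty acid uptake and activation held 2 rising genes and 1 falling gene of 10 in each comparison. Cd36, the fatty acid translocase, stood at 71.3 and 65.8 CPM in shDnajb9 livers, against 203.5 and 361.1 CPM in lacZ1 livers, and was 4.12-fold lower (log2 -2.04, adjusted p = 0.000907). Livers given the Rictor hairpin had 102.3 and 94.4 CPM, against 359.0 and 407.5 CPM in lacZ2 livers, 3.9-fold lower (log2 -1.96, adjusted p = 0.00113). Slc27a5, a transporter and acyl-CoA synthetase of hepatocytes, rose under both (log2 1.98 and 2.16). Of the other mitochondrial genes 9 of 23 rose and 1 fell under the Dnajb9 hairpin, and 7 rose and 1 fell under the Rictor hairpin. Acadsb, a dehydrogenase of short branched chains, rose under both (log2 2.01 and 1.58), as did Pccb, a propionyl-CoA carboxylase subunit (log2 1.20 and 1.33). Cpt1c, the brain-type relative of Cpt1a, was the gene that fell under both (adjusted p = 0.00106 and 0.000366), at 2 and 7 counts in the shDnajb9 libraries.

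Of the other peroxisomal genes 4 of 19 rose and 1 fell under the Dnajb9 hairpin, and 6 rose and 1 fell under the Rictor hairpin. Nudt7, a coenzyme A hydrolase of peroxisomes, rose by log2 2.72 and 2.39, Phyh, which starts alpha-oxidation of branched chains, by 1.71 and 1.85, and Pecr, a trans-2-enoyl-CoA reductase, by 1.80 and 1.17. Abcd2, a peroxisomal fatty acid transporter, fell (log2 -2.70 and -1.28). Of 8 other ketone body genes 3 rose and 3 fell under each hairpin. Bdh2, a cytosolic hydroxybutyrate dehydrogenase, rose (log2 1.96 and 1.52), whereas Slc16a1, a monocarboxylate transporter that carries ketone bodies, fell (log2 -1.13 and -1.08).

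Among 12 other known targets of PPAR alpha, 1 rose and 4 fell in each comparison. Fgf21, a fasting hormone of the liver, stood at 0.21 and 0.343 CPM in shDnajb9 livers, against 3.10 and 2.74 CPM in lacZ1 livers (adjusted p = 0.00389), and the shDnajb9 values rest on 1 and 3 counts. Its level in shRictor livers was 1.29 and 0.489 CPM, against 7.09 and 4.82 CPM in lacZ2 livers (log2 -2.75, adjusted p = 0.00163). Cidec, which fuses lipid droplets, fell under both (log2 -2.48 and -1.53). Pank1, a pantothenate kinase of coenzyme A synthesis, rose under both (log2 1.16 and 1.71). Of 19 partners and regulators of PPAR alpha, 2 rose and 2 fell under the Dnajb9 hairpin, and 3 rose and none fell under the Rictor hairpin. Ppargc1a, the coactivator PGC-1 alpha, rose under both (log2 1.03 and 1.45). Of 6 genes of omega-oxidation 0 were called under the Dnajb9 hairpin, with 1 at an unadjusted p under 0.05 and 0 by DESeq2 or limma-voom. Under the Rictor hairpin 2 rose, Cyp4a32 (log2 1.28) and Cyp4a12b (log2 1.77), both uncertain because 43.8% and 49.4% of their sequence is shared.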

How the data were processed

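Total RNA from liver was freed of ribosomal RNA and sequenced, per the labels' protocols. The deposited values are raw HTSeq counts of reads per gene, in 1 table per library, with adapters trimmed by cutadapt and mm10 as the build, per the submitters' processing notes. The aligner, the annotation and the strand setting are not given in the sources used here. Entries that name no gene, 48.42% to 63.74% of reads, were left out.

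Libraries were grouped by their labels. Genes were kept by edgeR's filterByExpr (minimum count 10), which left 13767 of 24062, scaled by TMM, and tested with edgeR 4.0.16 (R 4.3.3) by the robust quasi-likelihood test in a fit of all 4 group means, which share 1 estimate of the spread with 4 residual degrees of freedom. The p-values were adjusted by Benjamini-Hochberg over all genes tested and called under 0.05. The common biological coefficient of variation was 0.209. An exact permutation test of 2 against 2 libraries cannot go below 0.333, so none was used. CPM uses TMM-scaled library sizes, and RPKM divides it by merged exon length from GENCODE M21. A gene was called uncertain where 20% or more of its 50-base words recur in other genes on either strand. DESeq2 1.42.0 and limma-voom (limma 3.58.1) were alternatives, with other scalings, filters, a 1.5-fold test, a replicate block and each library left out. Members and gene lists were chosen with earlier results of these data known. Other pathway genes were named from a pool: at most 4 called genes per list and comparison, those with the smallest adjusted p. Not every gene of that pool is named in the text.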

Additional observations from a re-analysis of the deposited data

How the results depend on the processing

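Each value below is given beside its alternative, and the cause of these changes was not tested beyond the alternative's own construction. Scaling by total count alone moved the median of all genes from -0.05 to -0.46 (Dnajb9) and from -0.02 to -0.42 (Rictor). The members' median was then -0.51 (Dnajb9) and -0.28 (Rictor, against 0.12), and their distance from the median of all genes was -0.05 (Dnajb9, against -0.02) and 0.14 (Rictor, as before); 12 members fell and 1 rose under the Dnajb9 hairpin, and 7 fell and 0 rose under the Rictor hairpin. Dnajb9 itself was then called (log2 -1.12), as it was without a filter on low counts (-0.71). Under total-count scaling these uncalled members turned negative: Acadvl (-0.16), Angptl4 (-0.18), Bdh1 (-0.04), Decr1 (-5.0e-03), Ech1 (-0.19), Hadh (-0.02) and Ppara (-0.32) under the Dnajb9 hairpin, and Acadl (-0.17), Acadvl (-0.19), Angptl4 (-0.30), Bdh1 (-4.0e-03), Cpt2 (-0.27), Decr1 (-0.15), Ech1 (-0.34) and Slc25a20 (-0.36) under the Rictor hairpin. Members near 0 also changed sign: Acaa1b under RLE size factors (0.01), DESeq2 (0.01) and the replicate block (0.03), Slc25a20 under RLE size factors (0.01) and DESeq2 (0.01), and Hadha under limma-voom (0.01). A test against a 1.5-fold change left 1314 (Dnajb9) and 1120 (Rictor) of all genes, 16 and 16 other pathway genes, 3 and 2 members that fell, and 0 and 0 that rose. Members that rose under the Rictor hairpin (1, Ppara) numbered 2 without a filter, 2 with limma-voom, 3 with DESeq2 and 0 with the 4 libraries compared alone; without a filter 1 member rose in lacZ2 over lacZ1. Leaving out each library in turn, or both the shDnajb9 and lacZ2 libraries of replicate 1, which hold the fewest counts, gave these ranges. All genes called were 998 to 4142 (Dnajb9) and 1053 to 3009 (Rictor), other pathway genes 12 to 36 and 14 to 37, members that fell 2 to 8 and 2 to 5, members that rose 0 to 4 and 0 to 2, and the members' median -0.34 to -0.04 and -0.08 to 0.47. Uncalled members whose sign turned ranged, under the Dnajb9 hairpin, from -0.36 to 0.27 (Acaa1b), -0.22 to 0.64 (Ech1), -0.27 to 0.36 (Ppara) and -0.61 to 0.40 (Slc25a20). Under the Rictor hairpin they ranged from -0.69 to 0.57 (Acadm), -0.17 to 0.69 (Acadvl), -0.15 to 0.34 (Angptl4), -0.15 to 0.48 (Cpt2), -0.08 to 0.22 (Ech1), -0.38 to 0.39 (Hadha), -0.59 to 0.10 (Hadhb), -0.21 to 0.33 (Slc25a20) and -1.04 to 0.53 (Vnn1). Libraries of the same number did not deviate together (correlation -0.3 for shDnajb9 and lacZ1 and -0.0321 for shRictor and lacZ2, over 13767 genes). Each correlation compares a single difference between libraries per group, so it cannot show whether the numbers pair the libraries. With the replicate block 3289 (Dnajb9) and 2470 (Rictor) of all genes were called. Pairing the libraries crosswise, chosen after the data were seen, called 2992 and 2286 of all genes, and 2 members rose under the Rictor hairpin. Depth limits the lowest members most, with 5 counts of Acot3 in shDnajb9 replicate 2.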
